A study of Danio rerio with 6 samples.

Results

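The genes described here build and pull on the mitotic spindle, hold and separate the chromosomes, and cut the dividing cell apart. They were chosen by name from the authors' deposited comparison table (for example kif11, aurkb, cenpe, ndc80, plk1 and anln), and a gene was kept when its identifier was also in the deposited expression table. The name rule matched 87 genes, and 81 of them were in both tables, out of 24667 genes that the tables share. RNA was sequenced from 6 samples of adult zebrafish (Danio rerio) heart. The 3 DN-MAML samples came from fish with the genotype Tg(hsp70l:DN-MAML), and the 3 WT samples from wild-type fish. All the fish were TU-AB, aged 6 to 12 months, had their hearts amputated, were heat shocked at 38 C for 1 h each day and were sampled 5 days after amputation, so the WT hearts were injured and heated too. DN-MAML is a truncated, dominant-negative form of Mastermind, the co-activator that Notch needs to switch on its target genes. It is driven here by the heat shock promoter hsp70l, which is not restricted to one cell type, and the transgene has no row of its own in the tables. The study's design text asks which genes lie downstream of Notch in the proliferation of heart muscle cells during regeneration.

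In mitosis the duplicated chromosomes are packed by condensin, and kinetochores are built on their centromeres to catch the microtubules of the spindle. The spindle checkpoint holds the cell back until every kinetochore is attached. The anaphase-promoting complex then releases the sister chromatids, and the central spindle places the ring that divides the cell. Transcripts of many of these genes accumulate as a cell nears division, so they are widely read as a sign of cycling cells. The zebrafish heart regrows after amputation largely through division of its surviving muscle cells, and endocardial, epicardial and blood cells divide there as well.

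Levels are FPKM, the authors' fragment counts scaled to gene length and library size, so they can be compared between genes. Log2 changes are DN-MAML over WT on the scale log2(FPKM + 0.5), which understates the change of low genes. They were tested in limma over every gene whose mean reached 0.5 FPKM, 16556 in all. Of the 81 genes, 78 passed this minimum. The other 3, birc5b, cdca9 and ECT2L, had at most 0.12, 0.07 and 0.03 FPKM in any DN-MAML sample and at most 0.10, 0.36 and 0.02 FPKM in any WT sample. Over all genes tested, WT replicate 1 lay apart from its group on the first principal component (-1.31, against -33.8 and -25.9 for WT replicates 2 and 3, and 10.1 to 28.1 for DN-MAML). WT replicate 3 had 73.78 FPKM of hsp70l, against 2.72 to 6.84 FPKM in the DN-MAML samples and 4.77 and 8.10 FPKM in the other WT samples. Results are therefore also given without each of these samples.

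Mitosis genes were lower in DN-MAML hearts across nearly the whole set, by a modest amount. Of the 78 genes tested, 75 (96.2%) had a lower mean in DN-MAML on the log2 scale, where 44.9% of all genes tested did. The median log2 change was -0.35 (0.03 over all genes tested), and single genes ranged from -0.82 to 0.62, with standard errors (SE) between 0.10 and 0.32. In 40 of the 78 (51.3%) all 3 DN-MAML values lay below all 3 WT values, which was so for 8.98% of all genes tested. The reverse order held for 1 gene, pttg1ipa, against 9.83% of all genes. No member passed limma's test after Benjamini-Hochberg adjustment over all genes (lowest adjusted p = 0.120, for prc1b, lower in 3 of 3 DN-MAML samples). That test called 16 genes in the whole table (0.0966%). At an unadjusted p under 0.05, 32 members (41.0%) were lower, against 6.23% of all genes, and 1 was higher, against 6.99%. In the authors' deposited table, 18 of the 77 members with an adjusted p (23.4%) were lower past 0.05 and 0 were higher. The background in that table was 2.27% of genes lower and 2.11% higher. The same 6 samples underlie every gene, so these are not counts of independent observations. The mean of log2(FPKM + 0.5) over the 78 genes was 1.90, 1.75 and 1.88 in DN-MAML replicates 1 to 3. It was 2.09, 2.02 and 2.49 in WT replicates 1 to 3, and the pooled SD within groups was 0.189. In bulk RNA, fewer dividing cells and less of these transcripts per dividing cell cannot be told apart.

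**Figure D1:**
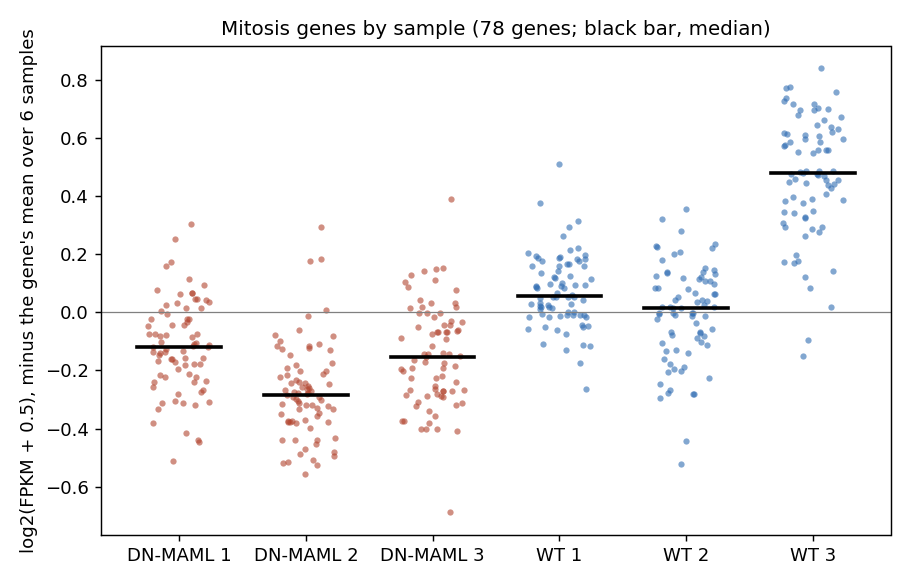
Each point is 1 of the 78 mitosis genes in 1 sample, as log2(FPKM + 0.5) minus that gene's mean over the 6 samples, with DN-MAML at the left and the median as a black bar. The DN-MAML medians lie between -0.28 and -0.12, WT replicates 1 and 2 lie at 0.06 and 0.02, and WT replicate 3 lies at 0.48.

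The samples did not contribute equally. The median FPKM over the 78 genes was 2.65, 2.35 and 2.69 in DN-MAML replicates 1, 2 and 3, against 3.04, 2.88 and 4.66 in WT replicates 1, 2 and 3. WT replicate 3 held the highest of the 6 values for 70 of the 78 genes, and its median log2 distance from the mean of WT replicates 1 and 2 was 0.47. DN-MAML replicate 2 held the lowest value for 46 genes. The SD among WT samples exceeded that among DN-MAML samples for 70 of the 78 genes. Of the 78 genes, 58 in WT replicate 1, 45 in WT replicate 2 and 73 in WT replicate 3 were above every DN-MAML sample. The matching shares of all genes were not computed, nor were those for the highest and lowest samples. Without WT replicate 3 the median log2 change was -0.24, 66 genes were on the lower side (41.9% of all genes) and 41 had groups that do not overlap (11.6% of all genes). The log2 change of 47 of the 78 genes then moved by more than 1.5 times, and 9 genes changed sign (CENPT, CENPU (2 of 2), cenpp, kif15, kif18a, mis18a, ncapd2, ncapd3 and smc4). The number lower at an unadjusted p under 0.05 was then 17. Leaving out DN-MAML replicate 2 instead gave 19. Of the 16556 genes tested, 1529 and 2066 were under 0.05 in either direction in these fits, against 2189 with all 6 samples. With WT replicate 1 left out the median log2 change was -0.40, 44 genes had groups that do not overlap (14% of all genes) and prc1b passed limma's test (log2 change -0.93, adjusted p = 0.0360). Its adjusted p ranged up to 0.297 over the alternatives tried. In that fit 0.628% of all genes were called lower.

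Genes of the central spindle and of cytokinesis were lower throughout. All 10 tested were lower, with a median log2 change of -0.58, and in all 10 the groups did not overlap (8.98% of all genes, DN-MAML lower). Their median was -0.40 without WT replicate 3, when the groups again did not overlap in any of the 10 (11.6% of all genes). With the FPKM rescaled to the total without globin and mitochondrially encoded genes this held for 9 (7.07% of all genes). Of the 10, 7 were lower past 0.05 in the authors' deposited table (2.27% of all genes). Whether this group differed from the other roles was not tested.

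The microtubule bundler prc1b, which crosslinks the central spindle, had 7.23, 7.24 and 7.69 FPKM in DN-MAML replicates 1 to 3, against 11.51, 12.58 and 16.74 FPKM in WT replicates 1 to 3. The DN-MAML samples agree closely with one another, and the lowest WT sample is well above the highest of them. Its log2 change was -0.82 (SE 0.14), and the authors' deposited table gives -0.92 with an adjusted p of 1.06e-05. The mitotic kinesin kif20a, which carries the passenger complex to the central spindle, had 5.11, 4.06 and 4.68 FPKM in DN-MAML, against 7.17, 7.34 and 10.94 FPKM in WT. Its mean in DN-MAML was 54.4% of that in WT (log2 change -0.79, SE 0.17; limma adjusted p = 0.167). Anillin (anln), the scaffold of the contractile ring, had 9.66, 8.75 and 10.49 FPKM in DN-MAML, against 14.55, 15.55 and 20.90 FPKM in WT. In each of these genes WT replicate 3 was the highest sample and WT replicates 1 and 2 lay between it and the DN-MAML samples.

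Centralspindlin pairs the kinesin kif23 with the GTPase-activating protein racgap1. For kif23 the values were 8.16, 8.55 and 8.44 FPKM in DN-MAML, against 11.55, 10.73 and 15.76 FPKM in WT (log2 change -0.55, SE 0.15). For racgap1 they were 6.54, 5.42 and 4.96 FPKM in DN-MAML, against 6.71, 6.84 and 11.58 FPKM in WT. The gap between the groups was wide for kif23 and only 0.17 FPKM for racgap1, whose mean difference leans on WT replicate 3. The cytokinesis factor ect2, which racgap1 recruits, averaged 1.67 ± 0.181 FPKM in DN-MAML and 2.86 ± 0.859 FPKM in WT (SD, n = 3 each). The kinesins kif20ba, KIF20B (1 of 2) and kif14 were also lower, with log2 changes of -0.76, -0.51 and -0.39. The authors' deposited table gives -0.48, -0.64 and -0.62 in the same order (adjusted p = 0.1675, 0.0358 and 0.0508).

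**Figure D2:**
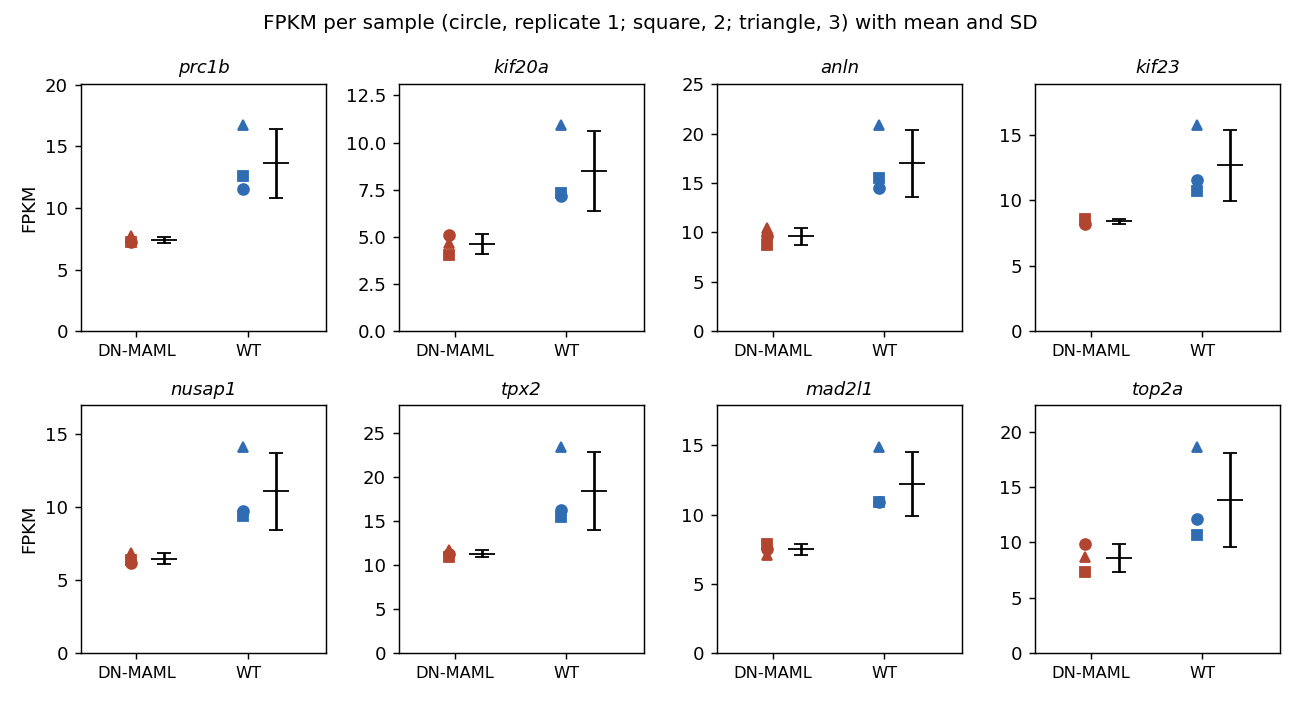
FPKM of 8 mitosis genes in each sample (circle, replicate 1; square, 2; triangle, 3), with DN-MAML left of WT and the mean and SD beside the points; every vertical axis starts at 0. In all 8 genes the DN-MAML samples lie below the WT samples, and the highest WT point is replicate 3.

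Among spindle motors and spindle assembly factors all 11 tested were lower, with a median log2 change of -0.48. Without WT replicate 3, 9 of the 11 were lower and the median was -0.25. The groups did not overlap in 6 of the 11 (8.98% of all genes, DN-MAML lower). Of the 11, nusap1, tpx2 and tacc3, which nucleate or stabilise spindle microtubules, had the largest log2 changes. The microtubule nucleator tpx2, which also activates Aurora A, had 11.25, 10.91 and 11.77 FPKM in DN-MAML, against 16.25, 15.47 and 23.49 FPKM in WT (log2 change -0.65, SE 0.16). The microtubule crosslinker nusap1 had 6.18, 6.35 and 6.88 FPKM in DN-MAML, against 9.77, 9.36 and 14.15 FPKM in WT (log2 change -0.71, SE 0.16). The spindle protein tacc3 averaged 8.24 ± 1.36 FPKM in DN-MAML and 12.8 ± 2.95 FPKM in WT (SD, n = 3 each). In the authors' deposited table tpx2, nusap1 and tacc3 were lower past 0.05 (adjusted p = 0.00457, 0.000655 and 0.0140). The kinases of spindle assembly were lower as well: plk1 averaged 8.22 ± 1.27 FPKM in DN-MAML and 12.02 ± 2.49 FPKM in WT, and aurka averaged 2.47 ± 0.554 FPKM in DN-MAML and 3.65 ± 0.926 FPKM in WT (SD, n = 3 each). The values of plk1 do not overlap between the groups and those of aurka do. Neither plk1 nor aurka was past 0.05 in the authors' deposited table (adjusted p = 0.0625 and 0.107). The kinesins of this role had log2 changes of -0.49 for kif2c, -0.48 for KIF4A, -0.32 for kif11, -0.10 for kif15 and -0.07 for kif18a. Without WT replicate 3 these were -0.24, -0.25, -0.19, 0.05 and 0.07 in the same order, so kif15 and kif18a changed sign.

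The chromosomal passenger complex corrects faulty attachments and later acts at the central spindle. Its kinase aurkb, its survivin subunit birc5a and its borealin subunit cdca8 were the 3 genes tested. None of them overlapped between the groups (8.98% of all genes did not, DN-MAML lower). The highest of these was cdca8, with 7.32, 6.38 and 6.72 FPKM in DN-MAML, against 8.63, 9.30 and 12.96 FPKM in WT. For birc5a the values were 4.45, 3.78 and 3.77 FPKM in DN-MAML, against 5.21, 5.65 and 6.74 FPKM in WT. For aurkb they were 5.20, 4.83 and 5.18 FPKM in DN-MAML, against 6.55, 5.28 and 9.85 FPKM in WT. The log2 changes were -0.54, -0.50 and -0.43 in that order. The gap between groups is only 0.08 FPKM for aurkb, and the authors' deposited table gives cdca8 and birc5a, but not aurkb, an adjusted p under 0.05 (0.0278, 0.0329 and 0.235). The second survivin gene, birc5b, is the one near 0 in both groups.

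All 7 spindle checkpoint genes were lower (median log2 change -0.50, and -0.29 without WT replicate 3). In 5 the groups did not overlap (8.98% of all genes, DN-MAML lower). The checkpoint effector mad2l1, which sequesters the activator of the anaphase-promoting complex, had 7.54, 7.86 and 7.09 FPKM in DN-MAML, against 10.92, 10.88 and 14.91 FPKM in WT. Its log2 change was -0.66 (SE 0.14; limma adjusted p = 0.156), and it was the 1 checkpoint gene past 0.05 in the authors' deposited table (adjusted p = 0.00155). The most abundant checkpoint gene, bub3, which brings bub1 to the kinetochore, differed less: it averaged 9.73 ± 0.737 FPKM in DN-MAML and 12.3 ± 1.34 FPKM in WT (SD, n = 3 each; log2 change -0.32). The kinases bub1 and ttk had log2 changes of -0.51 and -0.50, and ttk overlapped between the groups.

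At the outer kinetochore, which binds the microtubules, 11 of 11 genes tested were lower (median log2 change -0.44, and -0.29 without WT replicate 3). Of these, 6 did not overlap between the groups (8.98% of all genes, DN-MAML lower). The 4 subunits of the Ndc80 complex lay close together in level and in change. Their means were between 3.34 and 4.64 FPKM in DN-MAML and between 4.77 and 6.62 FPKM in WT, and their log2 changes were -0.48 for spc24, -0.45 for spc25, -0.44 for ndc80 and -0.43 for nuf2. The value of spc24 is uncertain, because its mean normalized count in the authors' deposited table is only 0.88, and this was not reconciled with its mean of 4.56 FPKM over the 6 samples; its groups overlap, and those of the other 3 subunits do not. The large coiled-coil protein cenpf averaged 1.79 ± 0.110 FPKM in DN-MAML and 2.73 ± 0.663 FPKM in WT (SD, n = 3 each), and the authors' deposited table calls it lower (adjusted p = 0.0210). The most abundant gene of this role, SKA2 of the microtubule-binding Ska complex, had 25.92, 28.08 and 28.54 FPKM in DN-MAML, against 29.85, 29.23 and 26.06 FPKM in WT, so the groups overlap (log2 change -0.04, SE 0.10). Its partners ska1 and ska3 had means of 1.40 and 2.01 FPKM in DN-MAML and of 2.17 and 2.76 FPKM in WT (log2 changes -0.48 and -0.38).

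Genes of the inner kinetochore and of centromere assembly showed smaller differences. All 13 were on the lower side, with a median log2 change of -0.24 (-0.13 without WT replicate 3, when 9 of 13 were lower), and 2 of 13 (cenpi and cenpl) did not overlap between the groups, where 8.98% of all genes tested did not, DN-MAML lower. That count was 6 without WT replicate 2, 5 without DN-MAML replicate 1 and 4 without WT replicate 1 or DN-MAML replicate 3. It stayed at 2 without WT replicate 3 or DN-MAML replicate 2. The count also moved with the scaling of all 6 samples. It was 6 after median-ratio scaling (11.6% of all genes). It was 1 with the FPKM rescaled to the total without globin and mitochondrially encoded genes (7.07% of all genes). Leaving out 1 sample raised the share of all genes too, to between 11.6% (without WT replicate 3) and 17.4% (without WT replicate 2). None of the 13 was past 0.05 in the authors' deposited table, where cenpp and cenpv were on the higher side. The highest, cenpw, part of a histone-fold complex at the centromere, had 4.17, 3.83 and 3.11 FPKM in DN-MAML, against 3.71, 4.47 and 5.43 FPKM in WT. These genes are also expressed at lower levels, with means over the 6 samples from 0.83 to 4.12 FPKM. With 0.1 in place of 0.5 added to the FPKM, which shrinks low genes less, their median was -0.28, and that of the cytokinesis genes was -0.67.

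Condensin and other proteins of the mitotic chromosome were lower in 11 of 11 genes, with a median log2 change of -0.23. Its size depended on single samples: it was -0.07 without WT replicate 3, when 8 of 11 were lower, -0.15 without DN-MAML replicate 2 and -0.36 without WT replicate 2. Topoisomerase top2a, which untangles sister chromatids, had 9.80, 7.29 and 8.65 FPKM in DN-MAML, against 12.07, 10.67 and 18.64 FPKM in WT (log2 change -0.62, SE 0.21). The groups do not overlap, and the authors' deposited table gives top2a an adjusted p of 0.0194. The proliferation marker mki67, which coats mitotic chromosomes, had 3.47, 2.94 and 3.82 FPKM in DN-MAML, against 3.75, 3.21 and 5.34 FPKM in WT. Those groups overlap, with a log2 change of -0.21 (SE 0.18; limma adjusted p = 0.643) that was -0.029 without WT replicate 3. Of the condensin I subunits, ncaph and ncapg did not overlap between the groups (log2 changes -0.38 and -0.32) and ncapd2 did (-0.18). The condensin II subunits ncapg2, ncaph2 and ncapd3 all overlapped (-0.24, -0.20 and -0.09), as did the SMC ATPases smc2 and smc4 that both complexes share (-0.23 and -0.15). Without WT replicate 3, ncaph and ncapg were both at -0.17, smc2, ncapg2 and ncaph2 between -0.089 and -0.0070, and ncapd2, smc4 and ncapd3 on the higher side, between 0.0052 and 0.082.

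Of the 4 genes that act at sister separation, ube2c, the ubiquitin-conjugating enzyme of the anaphase-promoting complex, was the most abundant. It had 15.05, 15.67 and 14.98 FPKM in DN-MAML, against 18.70, 22.02 and 30.23 FPKM in WT (log2 change -0.59, SE 0.17). Securin (pttg1), which restrains separase, had 2.56, 3.19 and 3.01 FPKM in DN-MAML, against 4.15, 5.08 and 6.19 FPKM in WT (log2 change -0.71, SE 0.16). The groups do not overlap in either gene, although neither is past 0.05 in the authors' deposited table (adjusted p = 0.0610 and 0.0837). The level of pttg1 is uncertain. It had 0.106 FPKM per normalized count, against a median of 0.00856 over members with a count of at least 10. That gap was not reconciled. The cohesin protector cdca5 and separase (espl1) had log2 changes of -0.21 and -0.15, and espl1 was at -0.018 without WT replicate 3. The 4 genes had a median of -0.40, and of -0.65 over the pair averaging 2 FPKM or more. Without WT replicate 3 the median of the 4 was -0.30, with ube2c at -0.40 and pttg1 at -0.58.

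The centriole genes plk4, the kinase that starts centriole duplication, and cenpj, a centriole growth factor, overlapped between the groups. The level of plk4 was 1.06 ± 0.0361 FPKM in DN-MAML and 1.26 ± 0.276 FPKM in WT (SD, n = 3 each). For cenpj the values were 0.86, 0.70 and 0.90 FPKM in DN-MAML, against 0.85, 0.57 and 0.97 FPKM in WT, and its log2 change of 0.04 changes sign after quantile normalization and when DN-MAML replicate 3 or WT replicate 2 is left out.

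**Figure D3:**
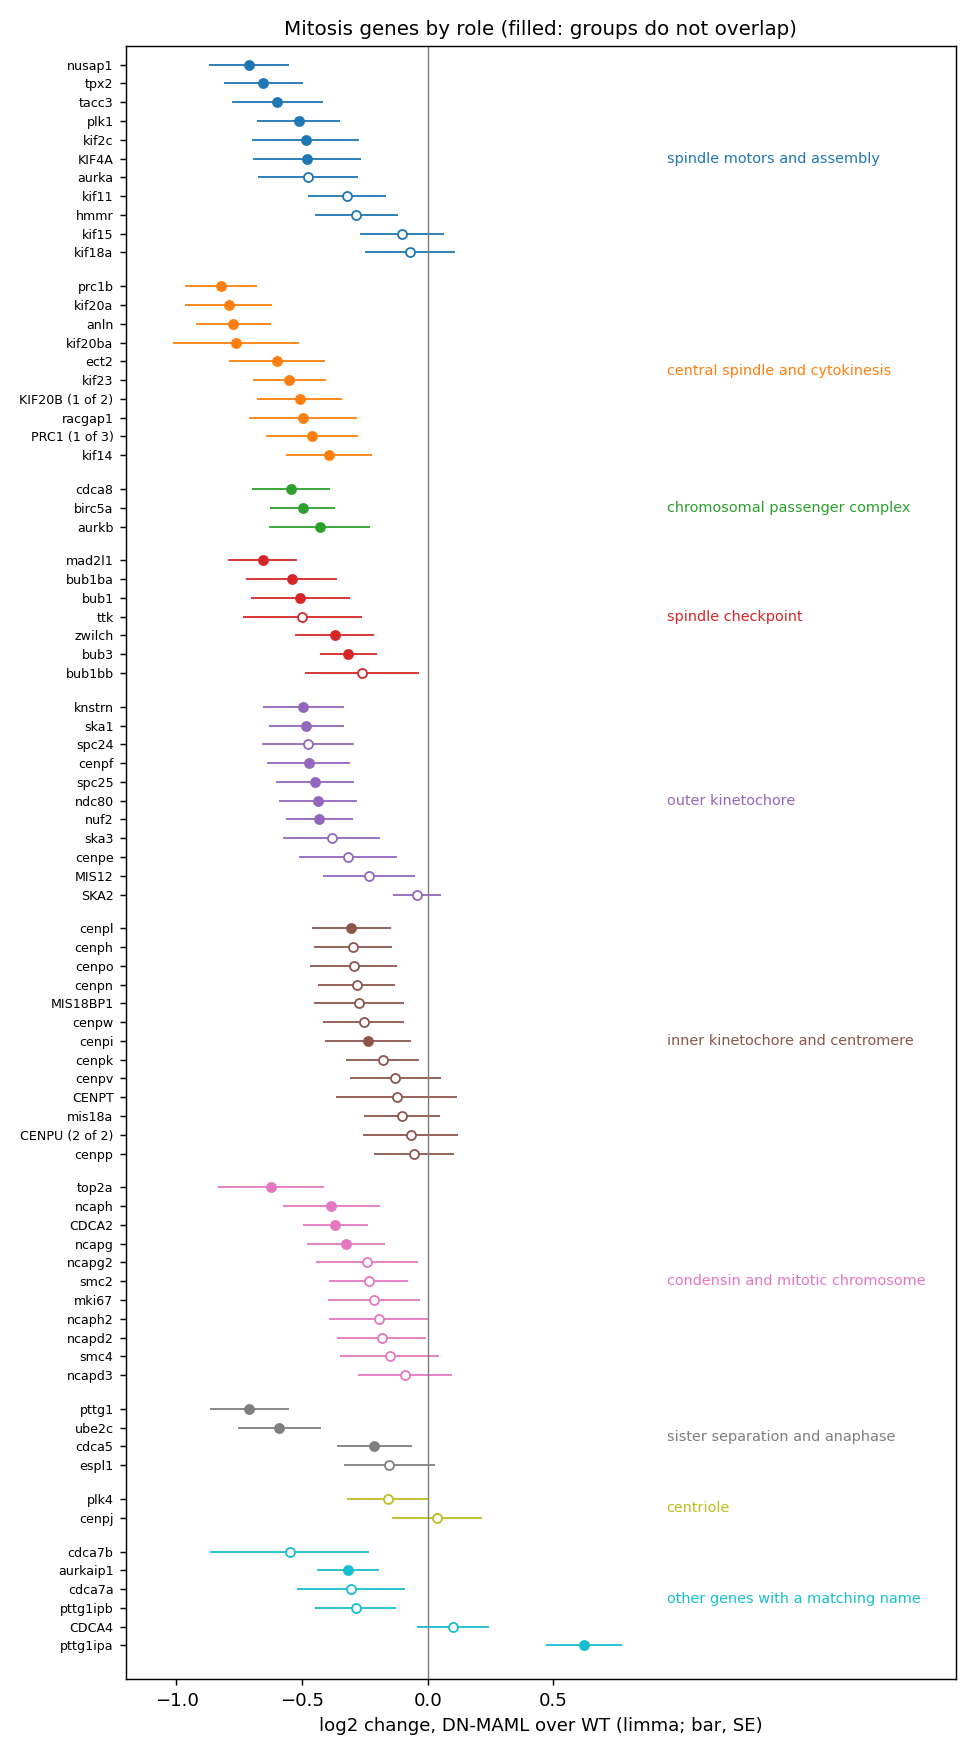
Log2 change of each of the 78 genes tested, DN-MAML over WT, with limma's SE as the bar; colours mark the roles, and a filled point marks a gene whose groups do not overlap. Every gene tested except cenpj, CDCA4 and pttg1ipa lies below 0, and all 10 central spindle and cytokinesis genes are filled.

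The name rule also took in 7 genes that carry a matching name and are known for other work, of which 6 were tested. The most abundant, aurkaip1, a mitochondrial ribosomal protein, had 52.19, 49.18 and 39.34 FPKM in DN-MAML, against 58.17, 61.43 and 55.19 FPKM in WT (log2 change -0.32). The transcription cofactor CDCA4 had 16.91, 21.79 and 21.40 FPKM in DN-MAML, against 18.23, 16.12 and 21.67 FPKM in WT, where the groups overlap (log2 change 0.10). The gene pttg1ipa, whose product binds securin, had 1.60, 1.66 and 1.81 FPKM in DN-MAML, against 0.97, 0.73 and 1.09 FPKM in WT. Its log2 change was 0.62 (SE 0.15; limma adjusted p = 0.193), and it is the 1 gene of the 78 whose DN-MAML values all lie above the WT values. Its paralogue pttg1ipb had a log2 change of -0.29 and overlapped between the groups. The chromatin factors cdca7a and cdca7b had log2 changes of -0.31 and -0.55, with SE of 0.21 and 0.32. Leaving out this kind of gene, 71 of 72 genes tested were lower and the median log2 change was -0.38.

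Paralogous copies that were tested lay on the same side apart from the pttg1ip pair. The BubR1 genes bub1ba and bub1bb averaged 2.04 ± 0.264 and 2.03 ± 0.309 FPKM in DN-MAML, and 3.24 ± 0.831 and 2.62 ± 0.955 FPKM in WT (SD, n = 3 each). For PRC1 (1 of 3), another gene of the prc1 family, the means were 2.34 ± 0.286 FPKM in DN-MAML and 3.47 ± 0.952 FPKM in WT (SD, n = 3 each), a log2 change of -0.46. Differences between copies were not tested, and their sequences were not compared, so reads shared between copies leave single values uncertain. Of the 6 genes matched by name in the comparison table only, prc1a and the anaphase activator cdc20 were lower in the authors' deposited table (log2 changes -0.77 and -0.78, adjusted p = 0.00663 and 0.000161), and the other 4, INCENP, SGOL1, kif22 and MAD2L1BP, had log2 changes from -0.46 to -0.15 and no adjusted p under 0.05.

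The difference was larger among the more abundant genes. Without the 7 genes of other function, the 20 genes averaging 5 FPKM or more had a median log2 change of -0.55, and 18 of them did not overlap between the groups. The 31 genes from 2 to under 5 FPKM had a median of -0.38 with 15 not overlapping, and the 21 genes from 0.5 to under 2 FPKM had a median of -0.21 with 6 not overlapping. Of all genes tested 8.98% did not overlap, DN-MAML lower, and 9.68% of those averaging 2 FPKM or more. The added 0.5 understates the change of low genes, so other scales were set beside it, and the order of the medians was the same. With 0.1 added the medians were -0.57, -0.43 and -0.26, and in the authors' deposited table they were -0.62, -0.44 and -0.35. That table needs no added value, but its estimates may also be drawn toward 0 at low counts. In it the replication gene pold2, with a mean normalized count of 0.14, has an SE of only 0.18. The order was therefore not tested free of such shrinkage.

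Other genes of division were set beside these. Of 54 further mitosis genes tested, such as cyclins, cdk1 and the spindle kinesin kifc1, 48 were lower and 6 higher, with a median log2 change of -0.35, and 28 did not overlap, DN-MAML lower (8.98% of all genes). Of the 41 with an adjusted p in the authors' deposited table, 7 were lower past 0.05 (2.27% of all genes). Chosen after its values were seen, CKAP2, a spindle-associated protein, had 16.21, 15.67 and 15.05 FPKM in DN-MAML, against 24.30, 27.43 and 37.09 FPKM in WT (log2 change -0.88, SE 0.15; limma adjusted p = 0.120). Of 42 DNA replication genes, 41 were lower with a median of -0.25, and 0 of 37 were past 0.05 in the authors' deposited table. Of the 42, 9 did not overlap, DN-MAML lower (8.98% of all genes). That count was 20 without DN-MAML replicate 1 and 18 without WT replicate 2. The share of all genes rose too in these fits, to 14.5% and 17.4%. WT replicate 3 was the highest sample for 46 of the 54 mitosis genes and 38 of the 42 replication genes. The share of all genes highest there was not computed. Without WT replicate 3 the medians were -0.20 and -0.13, and the replication median was -0.16 without DN-MAML replicate 2. The last 3 lists had medians nearer 0. In the anaphase-promoting complex 10 of 17 genes were lower (median -0.01), in cohesin 6 of 14 (0.01), and among gamma-tubulin and augmin genes, which nucleate microtubules, 13 of 14 (-0.11). Leaving out single samples moved the anaphase-promoting complex median between -0.04 and 0.01, that of cohesin between -0.06 and 0.05, and that of gamma-tubulin and augmin between -0.17 and -0.04. No gene of these 5 lists passed limma's test over all genes, where 0.0966% of all genes did. At an unadjusted p under 0.05, 20 of the 54 further mitosis genes were lower, as were 8 replication genes, 2 of the anaphase-promoting complex, 1 of gamma-tubulin and augmin and 0 of cohesin. Of all genes tested, 6.23% were lower at that level, so the counts of these last 3 lists lie near the background. Differences between the lists were not tested.

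**Figure D4:**
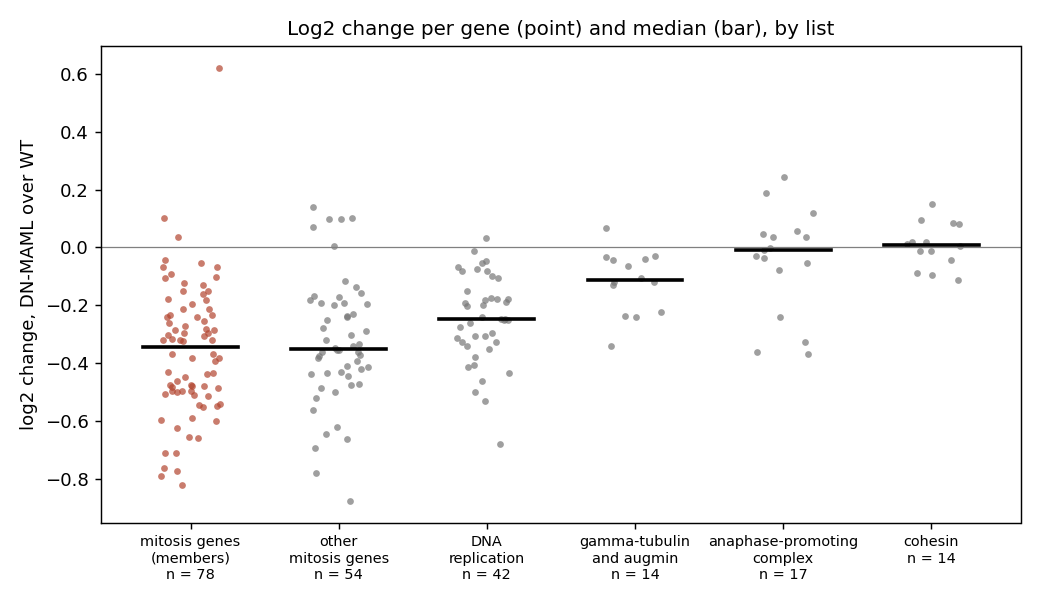
Log2 change of each gene tested, DN-MAML over WT (points), with the median of each list as a bar. The medians are -0.35 for the members and for the other mitosis genes, -0.25 for DNA replication, -0.11 for gamma-tubulin and augmin, and within 0.01 of 0 for the anaphase-promoting complex and cohesin.

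Markers of the cells in the heart moved in part with the groups. Cardiomyocyte markers summed to between 39183 and 48210 FPKM in DN-MAML and between 45344 and 54321 FPKM in WT, so genes that define heart muscle were abundant in every sample. Of these markers, 10 of 11 were lower (median log2 change -0.16, and -0.24 to -0.12 when 1 sample was left out). In 4 of the 11 the groups did not overlap (8.98% of all genes, DN-MAML lower). The log2 change was -0.70 for vmhc and -0.57 for tnnc1a, and 1 of the 11 was lower past 0.05 in the authors' deposited table (2.27% of all genes). Without DN-MAML replicate 1, DN-MAML replicate 3 or WT replicate 2, 8 of 11 were lower. Erythroid markers were lower in 15 of 16 (median -0.65). In 5 of the 16 the groups did not overlap (8.98% of all genes, DN-MAML lower), and 4 of 14 were lower past 0.05 in the authors' deposited table (2.27% of all genes). When 1 sample was left out the median was -0.87 to -0.48, and 13 to 15 of 16 were lower. They summed to 11429, 11678 and 17345 FPKM in DN-MAML replicates 1 to 3, against 18524, 32799 and 26320 FPKM in WT replicates 1 to 3. Leukocyte markers were higher in 16 of 16 (median 0.37, and 0.27 to 0.48 when 1 sample was left out). Their sums were 669 to 850 FPKM in DN-MAML and 489 to 690 FPKM in WT. In 5 of the 16 the groups did not overlap, DN-MAML higher (9.83% of all genes), and 1 of 13 was higher past 0.05 in the authors' deposited table (2.11% of all genes). Without DN-MAML replicate 1, DN-MAML replicate 3 or WT replicate 3, 1 of the 16 was lower. Endothelial and endocardial markers (5 of 11 lower, median 0.02, and -0.07 to 0.09 when 1 sample was left out) summed to 265 to 337 FPKM in DN-MAML and 261 to 317 FPKM in WT, and epicardial and fibroblast markers (3 of 9 lower, median 0.17, and 0.07 to 0.25 when 1 sample was left out) to 747 to 1030 FPKM in DN-MAML and 585 to 1109 FPKM in WT. All the endothelial, endocardial, epicardial and fibroblast markers overlapped between the groups. No marker was at 0 in every sample. The median log2 distance of the erythroid markers from their means over the 6 samples was -0.61, -0.45 and 0.11 in DN-MAML replicates 1 to 3. In WT replicates 1 to 3 it was -0.11, 0.60 and 0.46. For the mitosis genes the same distance was -0.12, -0.28 and -0.15 in DN-MAML, and 0.06, 0.02 and 0.48 in WT. With the FPKM rescaled to the total without globin and mitochondrially encoded genes, the mitosis genes had a median of -0.31 (0.06 over all genes). Of the mitosis genes 37 then did not overlap, DN-MAML lower, against 7.07% of all genes. The part of each cell type in the difference was not tested.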

How the data were processed

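The authors deposited FPKM for 32105 genes in 6 samples, rounded to 0.01, and a comparison table of 33737 genes. The submitters' processing notes name DESeq2, featureCounts, STAR, cutadapt and FastQC. Which versions, genome build, annotation, strand setting and FPKM tool were used is not stated in those notes or the files. Per the file headers the comparison table holds DESeq2's mean normalized count (a signal over samples), log2 fold change with standard error, test score, p-value and adjusted p-value, all the authors'; its sign was checked against the FPKM. No counts per sample were used. For 46 of 77 members 1 normalized count is worth less than the rounding step of 0.01 FPKM, so reads could not be recovered and depth per sample is unknown. 

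The DN-MAML and WT samples were compared by limma 3.58.1 (R 4.3.3; trended, robust variance) on log2(FPKM + 0.5), with Benjamini-Hochberg adjustment over 16556 genes and a threshold of 0.05. Exact permutation of 3 against 3 cannot go below p = 0.1 and was not used. On simulated data with 16556 genes, limma called 20% of genes changed by 0.5 log2 units and 62% of those changed by 1. It also called 4 unchanged genes. The simulation changed 200 genes, by up to 3 log2 units, with noise independent between genes. Its shares may therefore not hold for members that vary together. Whether a sample is 1 animal or a pool is not in the labels, and p-values therefore speak only of the spread among these 6 samples. Members and lists were chosen with earlier results of these data known. Symbols of 71 of 81 members were the same in a gene name table, ignoring case. After values were seen, 2 identifiers whose names disagree between the tables were left out of the lists. Named genes were those past limma's threshold, the 12 with the smallest adjusted p in the authors' table, the most abundant of each role, those on the higher side, and paralogues; others were named after their values were seen. Python 3.11.15, pandas 2.3.3, numpy 2.4.6 and matplotlib 3.10.9 were used.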

Additional observations from a re-analysis of the deposited data

How the results depend on the processing

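The number of members on the lower side, their median log2 change and the number with groups that do not overlap stayed within 1.5 times the main count, or within the spread between replicates, under all 16 alternatives. They ranged from 55 to 77 genes, from -0.44 to -0.24, and from 34 to 55 genes. The lowest counts come with a minimum mean of 2 FPKM, which left 56 members. Over all genes the share that did not overlap, DN-MAML lower, ranged from 7.07% to 17.4%. Leaving out samples for single roles and for the other lists was added after the data were seen. No member passed limma's test in any alternative except without WT replicate 1, so leaving out 1 sample gave 0 to 1 members. Over all genes, limma called 16, but 9 with a minimum mean of 2 FPKM, 10 after quantile normalization, and from 4 to 180 when 1 sample was left out. With the replicate number as a block it called 0 genes, where 2789 had an unadjusted p under 0.05. Same-numbered samples deviated from their group means with correlations of 0.208, -0.026 and 0.140 over genes, so the numbers were not taken as pairs, and DN-MAML replicate 2 correlated best with WT replicate 3 (0.094). The members' median was -0.35 with the block too. Among all 78 members, 11 changed sign under some alternative, 9 of them without WT replicate 3. Of the 32 genes that the naming rule took, this was so for cenpj: -0.029 after quantile normalization, and from -0.10 (without WT replicate 2) to 0.13 when 1 sample was left out. The cause was not tested. Depth per sample is unknown, so low genes carry an error that cannot be separated here.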
